A study of Macaca mulatta with 32 samples.

Results

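The cerebellum was compared with the neocortex in the rhesus macaque by the level of circRNAs, with 4 libraries of cerebellar cortex (CB) against 20 libraries of the neocortex. These 24 libraries were all those labelled CB, PFC, PCC, TC, PC or OC among the 32 of the series, and the 8 hippocampal libraries were not used. The neocortical libraries were 4 each of prefrontal (PFC), posterior cingulate (PCC), temporal (TC), parietal (PC) and occipital (OC) cortex. In every region the 4 libraries came from the same 4 pools. Females aged 10 years (10F), males aged 10 years (10M), females aged 20 years (20F) and males aged 20 years (20M) made 1 pool each, and each pool was mixed RNA of 2 healthy animals. All 8 animals therefore contributed to both sides of the comparison, and the spread between libraries is a spread between pools and regions and not between single animals. The 2 animals of a pool cannot be told apart.

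CircRNAs are closed RNA rings made when a downstream splice donor is joined to an upstream splice acceptor of the same transcript, and RNA sequencing sees them as back-splice reads that cross this junction. They are abundant in the brain, and many come from genes of the synapse. The cerebellar cortex is built mostly of small granule cells, whose parallel fibers make glutamatergic synapses on Purkinje cells, whereas the neocortex is built of pyramidal cells in layers with several classes of interneurons.

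The study designed primer pairs for circRNAs that it had chosen as enriched in CB, and these name the junctions followed here. The pairs of 5 of them are shown in lower case, 5′ to 3′, because values of the circRNAs they were designed for are given later. Whether a pair tells its circRNA from others of the gene with a nearby junction was not tested.
RIMS1 forward: tcagtgatgtgtccgccatt
RIMS1 reverse: ctgtcttgttcgctcctcca
TRIM72 forward: gacaagccgcagactgagt
TRIM72 reverse: cctccacttccaccaactgat
ATP9B forward: cgaagtgtaatgaacacatcca
ATP9B reverse: ccctggtaaatgtgccttca
MCTP1 forward: ggcatcagaagtacaagagcaa
MCTP1 reverse: gattcagggagcagtttcaaca
TNRC6A forward: aaagaaggaagctgctcaaa
TNRC6A reverse: tcttcttcttgcactaaatccc

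Values are given in TPM as the deposited table has them, and within each library they are whole back-splice reads times one constant. CB_10F was the shallowest library by far, with 18813 back-splice reads and 18.7 TPM for 1 read, against 115177 to 176456 reads in the other 3 CB libraries and 58037 to 894932 in the neocortex. In CB_10F a circRNA was therefore either listed at 0 or at 37.4 TPM or more. Its TPM also summed to 352188, the highest total, against 124769 to 298646 in neocortex. Relative to size factors from circRNAs found in all 24 libraries, its TPM scale was 1.68 times the median, against 0.542 to 1.33 in neocortex. Its TPM thus weigh more in CB means. With size factors 273 circRNAs were higher and 169 lower in CB. A value of 0 can hide 1 read in any library, because at least 2 reads were required. Zeros also occurred among abundant circRNAs. Of the 45 circRNAs with a neocortical median of at least 500 TPM, 16 were listed at 0 in at least 1 neocortical library. Results are therefore given with and without CB_10F where that library decides them, and sums over all circRNAs of a host gene stand beside the single circRNAs.

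CircRNAs of many genes differed between CB and neocortex. Of 10916 circRNAs above 0 in at least 4 of the 24 libraries, 292 (2.67%) were higher and 162 (1.48%) lower in CB at an adjusted p under 0.05 by limma on log2(TPM + 2.455). In bulk tissue, fewer cells of a type and less RNA per cell cannot be told apart. Of the 292, 116 were above 0 in fewer than 4 neocortical libraries and so passed the filter only through CB, where they had to be high, and a call among these is no support for a difference. Those higher lay in 187 host genes and those lower in 92, counting circRNAs that carry a single gene. Every CB library was above every neocortical library for 79 circRNAs (0.724%) and below every one for 26 (0.238%). The 79 include circRNAs that passed the filter only through CB, such as that at chr3:943243-945636. The 79 against 26 is therefore no support for more circRNAs being high than low in CB. Without CB_10F, 283 circRNAs were higher (2.59%) and 99 lower (0.907%), and 158 of the 292 and 87 of the 162 kept their call. Leaving out CB_10M gave 148 higher and 97 lower, leaving out CB_20F 105 lower and leaving out CB_20M 178 higher and 96 lower. When each pool gave a single difference, 99 were higher and 101 lower, and by voom on recovered reads 181 and 68.

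Summed over all circRNAs of a gene, 131 host genes were higher (2.81%) and 142 lower (3.05%) of 4663 tested. For 49 (1.05%) every CB library was above, and for 38 (0.815%) below, every neocortical library. The 49 include host genes that passed the filter only through CB, such as MDGA1. Without CB_10F, 94 host genes were higher (2.02%) and 96 lower (2.06%), of which 61 and 87 were among those called with it. Without CB_10M 74 were higher and without CB_20M 76. When every library was rescaled to the same total, 91 host genes were higher and 164 lower, and by voom, which moved the median log2 difference over all host genes from -0.05 to 0.76, 132 were higher and 44 lower. For 43 of the 131 and 65 of the 142, no single circRNA of the gene was called in that direction.

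**Figure D1:**
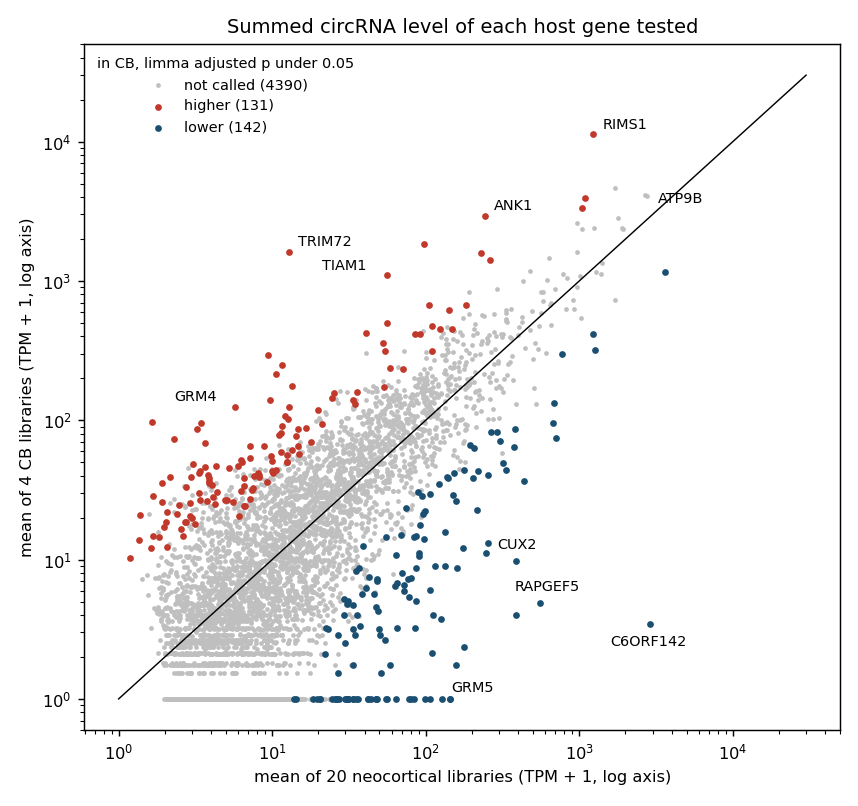
Mean summed circRNA level (TPM + 1, log axes) of each of the 4663 host genes tested, in 20 neocortical libraries (x) and 4 CB libraries (y), with the 131 genes higher in CB in red, the 142 lower in blue and the line of equality. RIMS1 and ANK1 lie above the line at high levels, C6ORF142 lies far below it, and the blue points on the lowest row are host genes listed at 0 in every CB library.

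RIMS1 (ENSMMUG00000010345), which encodes an organizer of the presynaptic active zone, gave the highest circRNA level of any host gene in CB. Its circRNAs summed to 11513 TPM in CB_10F, 11584 in CB_10M, 9043 in CB_20F and 13248 in CB_20M. In the 20 neocortical libraries the sum ran from 382.9 to 2569 TPM with a median of 1239. No neocortical library reached the CB range, and the means differed 9.20-fold (11347 ± 1733 TPM, SD, n = 4, against 1233 ± 579, n = 20). The log2 difference was 3.36 (SE 0.50, adjusted p = 1.62e-05 by limma, 0.000221 without CB_10F). RIMS1 took 3.27% to 5.23% of all back-splice reads in the CB libraries and 0.205% to 0.997% in the neocortical ones.

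The difference ran through several RIMS1 junctions. Of 15 RIMS1 circRNAs tested, 11 were higher in CB, none was lower, and all 15 had a log2 difference above 0. The 11 include chr4:68516970-68519480 and chr4:68550028-68607531, above 0 in 2 neocortical libraries each, and chr4:68600219-68607531, above 0 in 1. The 15 also include chr4:68499731-68558005 and chr4:68550028-68575942, above 0 in 3 each. These circRNAs passed the filter only through CB, so their calls and signs are no support for a difference. Of the 11, 5 ended at position 68607531 of chromosome 4. Of the 11, 7 kept their call without CB_10F and 7 with 1 difference per pool. The most abundant one, at chr4:68575830-68582219, was exonic and was the most abundant circRNA of CB, with 5055 TPM in CB_10F, 5699 in CB_10M, 5588 in CB_20F and 7165 in CB_20M. In neocortex it ran from 0 to 1358 TPM with a median of 509.5 and ranked 43 by mean level. All 4 CB values exceeded the neocortical ones. The log2 difference was 4.22 (SE 1.13, adjusted p = 0.0269), and with 2 neocortical libraries listed at 0 the adjusted p was 0.0643 without CB_10F. A neighbour with the same start, chr4:68575830-68607531, had 1704 to 3164 TPM in CB against a neocortical median of 266.7.

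A start only a few bases upstream gave further RIMS1 circRNAs. The circRNA at chr4:68575807-68582219, for which the RIMS1 primers were designed, shared its end with the most abundant one and is typed as intronic in the table. It had 56.2, 188, 104 and 169 TPM in CB_10F, CB_10M, CB_20F and CB_20M, against 0 to 35.4 TPM in neocortex with a median of 0.885. The log2 difference was 4.54 (SE 0.68, adjusted p = 4.27e-05). The longest RIMS1 circRNA called, chr4:68550028-68607531 with 57504 bases between its ends, had 10.99 to 150 TPM in CB and was above 0 in 2 of 20 neocortical libraries, reaching 2.85 TPM there, so that it passed the filter only through CB. Of the 4 RIMS1 circRNAs not called, chr4:68557893-68607531 was listed at 0 in CB_10F and at 331 to 449 TPM in the other CB libraries, against a neocortical highest value of 104. Its adjusted p was 0.455, and 0.0103 without CB_10F.

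**Figure D2:**
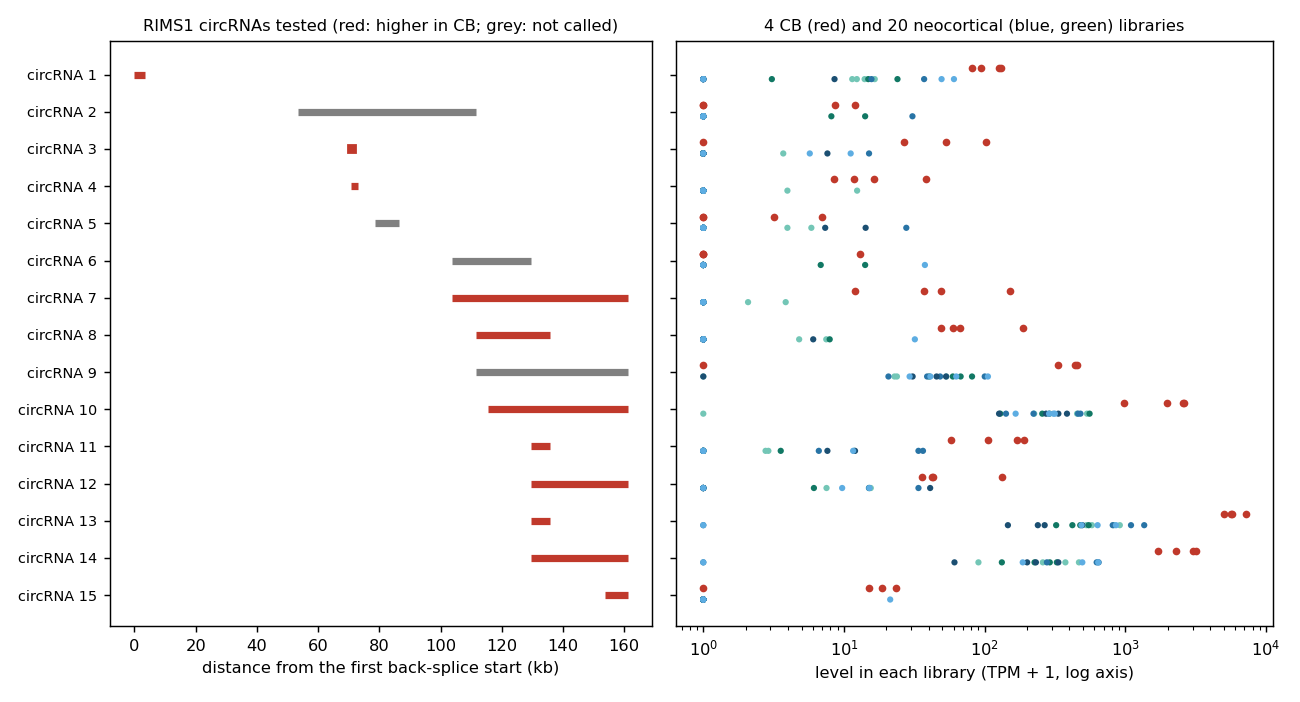
The 15 RIMS1 circRNAs tested, with the back-splice start to end of each in kb from the first start (left, red if higher in CB) and its level in the 4 CB and 20 neocortical libraries (right, TPM + 1, log axis, CB in red). For 3 abundant circRNAs that share the last 2 end positions, CB values lie at 977 to 7165 TPM, above every neocortical value of the same circRNA.

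TRIM72 (ENSMMUG00000016276), known as a membrane repair protein of muscle, had a circRNA that was abundant in CB and low in neocortex. The exonic circRNA at chr20:29319558-29319983 had 2621 TPM in CB_10F, 1677 in CB_10M, 1071 in CB_20F and 1123 in CB_20M. In the neocortex it ran from 0 to 30.9 TPM with a median of 10.1, and it was above 0 in 13 of 20 libraries. The means differed 138-fold (1623 ± 719 TPM against 11.8 ± 11.6), the largest log2 difference of those called as higher (7.40, SE 0.76, adjusted p = 7.19e-08, 3.74e-06 without CB_10F). A single other TRIM72 circRNA was in the table, so the host sum was nearly the same.

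ANK1 (ENSMMUG00000014726), an ankyrin that links membrane proteins to the spectrin skeleton, stood out in the same way. The circRNA at chr8:42216486-42217006, typed as intronic, had 5092 TPM in CB_10F, 2227 in CB_10M, 1401 in CB_20F and 2836 in CB_20M. Neocortical values ran from 55.9 to 458.4 TPM with a median of 191. All CB libraries lay above, and the log2 difference was 3.68 (SE 0.53, adjusted p = 2.10e-05, 0.000563 without CB_10F). Of the 7 ankyrin and spectrin genes tested, ANK1 alone was called, and the list's median log2 difference was -0.02 against -0.05 over all host genes tested.

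The smallest p among host genes higher in CB belonged to MDGA1 (ENSMMUG00000003725), a membrane-anchored protein that binds neuroligins. Its circRNAs summed to 187, 52.6, 57.6 and 87.9 TPM in CB_10F, CB_10M, CB_20F and CB_20M, and it was above 0 in 2 of 20 neocortical libraries, reaching 10.3 TPM. The log2 difference was 4.97 (SE 0.47, adjusted p = 4.13e-09), and 2.70e-07 was the adjusted p without CB_10F. MDGA1, FSTL5 and ENSMMUG00000031292 were among 18 of the 131 host genes that passed the filter only through CB, so that their p is a description. MDGA2, its relative in sequence, was lower in CB, with 0 to 17.4 TPM in CB against a neocortical median of 65.7 (log2 difference -3.10, adjusted p = 0.00775), a call that was lost without CB_10F (adjusted p = 0.0621) and by voom (0.277).

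Other host genes higher in CB held signalling and transport genes. GRM4, the presynaptic glutamate receptor mGlu4, had 112, 153, 56.5 and 176 TPM in CB against a median of 0 and a highest value of 33.0 in neocortex (log2 difference 4.83, SE 0.70, adjusted p = 1.14e-05). SLC38A1, a glutamine transporter, had 35.2 to 187 TPM in CB against 0 to 17.6 in neocortex. FGFR1, a fibroblast growth factor receptor, had 225 TPM in CB_10F and 31.5 to 50.6 in the other CB libraries, against 0 to 14.9 in neocortex. In each of these 3 genes, all CB values lay above all neocortical ones.

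ZNF521, a zinc finger transcription factor, had 60.8 to 580 TPM in CB against a neocortical highest value of 54.8, and all 4 of its tested circRNAs were higher. FAT1, an atypical cadherin, had 33.7 to 74.8 TPM in CB against at most 18.1. FSTL5, a follistatin-like secreted protein, had 13.2 to 56.2 TPM in CB and at most 15.2 in neocortex, so that 1 CB library fell within the neocortical range. ENSMMUG00000031292, described in the table as alsin, had 27.2 to 168 TPM in CB against at most 14.1. ENSMMUG00000032064, which has no name or description in the table, had 184 to 323 TPM in CB against at most 54.9, and all 4 of its tested circRNAs were higher. ZNF521, FAT1 and ENSMMUG00000032064 had an adjusted p under 0.05 by limma also without CB_10F. FSTL5 and ENSMMUG00000031292 passed the filter only through CB, so a p kept without that library is no support for them. The counts of called circRNAs of ZNF521 and ENSMMUG00000032064 do not set apart any that passed the filter only through CB. These counts are therefore no support by themselves.

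**Figure D3:**
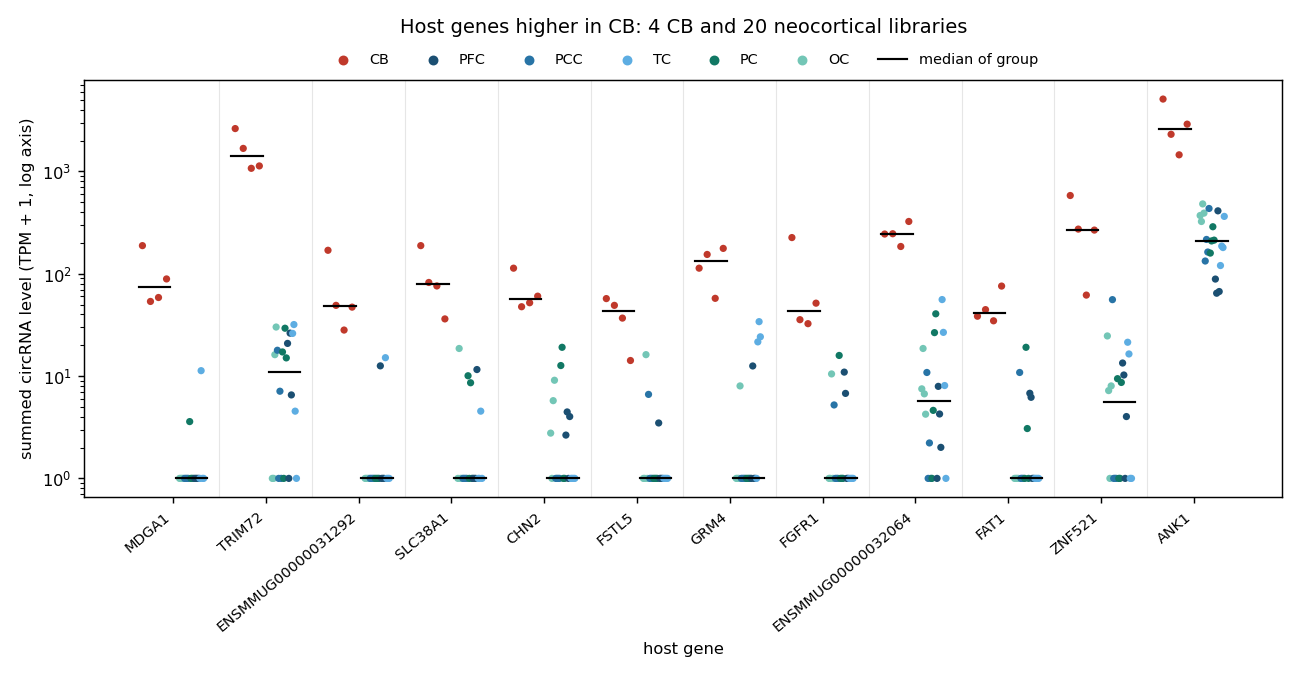
Summed circRNA level (TPM + 1, log axis) of the 12 host genes named as higher in CB, with 4 CB libraries (red) and 20 neocortical libraries (blue and green by region) as points and the median of each group as a bar. In 11 of the 12 every CB point lies above every neocortical point, and for FSTL5 the lowest CB value of 13.2 TPM lies below the highest neocortical one.

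Among single circRNAs, several junctions found in all 4 CB libraries were at 0 in most neocortical libraries. An intergenic circRNA at chr3:943243-945636 had 56.2, 18.03, 13.0 and 15.4 TPM in CB_10F, CB_10M, CB_20F and CB_20M and was listed at 0 in all 20 neocortical libraries (log2 difference 3.29, SE 0.37). It passed the filter of 4 libraries through CB alone, so no p is given. An intronic circRNA of CECR2, a chromatin remodelling factor, at chr10:62149690-62149985 had 15.4 to 131 TPM in CB and at most 3.55 in neocortex. A circRNA of ENSMMUG00000005740 (USP24 in the supplied gene names), a ubiquitin protease, at chr1:57972835-57983050 had 15.2 to 37.4 TPM in CB and at most 2.90. An intronic circRNA of MCTP1, a calcium-binding membrane protein, at chr6:91498485-91505812 had 68.4 to 337 TPM in CB and at most 14.1, and was above 0 in 8 of 20 neocortical libraries. Those of CECR2 and USP24 also passed the filter only through CB, so their calls are no support for a difference. That of MCTP1 was called with and without CB_10F.

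TIAM1 and CADPS2 each had several circRNAs higher in CB. TIAM1, an activator of the small GTPase RAC1, summed to 1741, 621, 642 and 1405 TPM in CB_10F, CB_10M, CB_20F and CB_20M against 0 to 128 TPM in neocortex. The 2 groups did not overlap, and the log2 difference was 4.82 (SE 0.85, adjusted p = 0.000217). Of its 10 circRNAs tested, 7 were higher, and 3 of these started at position 15308083 of chromosome 3. The 10 include chr3:15285053-15287573, which had a mean of 0.33 and at most 4.32 TPM in neocortex and passed the filter only through CB. CADPS2, a priming factor of dense core vesicles, summed to 242 to 674 TPM in CB against 0 to 86.9 in neocortex (log2 difference 3.55, SE 0.63, adjusted p = 0.000238), with 6 of 12 circRNAs higher. With 1 difference per pool, 3 of the 7 TIAM1 and 3 of the 6 CADPS2 circRNAs kept their call. Called circRNAs that passed the filter only through CB, 116 of the 292 over all genes, are not counted apart for TIAM1 and CADPS2. Their counts of called circRNAs are therefore no support by themselves.

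EML5, a microtubule-associated protein, and ATP9B, a phospholipid flippase of the Golgi, had single circRNAs that rose without a call for the gene. EML5 summed to 1948 to 3201 TPM in CB against 262.5 to 2023 in neocortex (log2 difference 1.64, adjusted p = 0.0651), and 5 of its 13 circRNAs were higher. ATP9B summed to 2872 to 5410 TPM in CB against 1405 to 4786 (log2 difference 0.56, adjusted p = 0.547), and 4 of its 38 circRNAs were higher. By voom, with its shifted median, both sums were called as higher (adjusted p = 9.25e-06 and 9.73e-06). With 1 difference per pool, 3 of the 5 EML5 and 1 of the 4 ATP9B circRNAs kept their call, and of ZNF521 and ENSMMUG00000032064 2 of 4 each. Called circRNAs of these genes that passed the filter only through CB are not counted apart, so the counts are no support by themselves. CDC42BPA, a kinase that acts with CDC42, was the only host gene with calls in both directions. Its circRNA at chr1:143352881-143353813 was higher (0 to 18.5 TPM against at most 7.84) and that at chr1:143293794-143323487 lower (73.9 TPM in CB_20F and 0 in the other CB libraries, against a neocortical median of 128). The higher circRNA was above 0 in 1 neocortical library and passed the filter only through CB, so its call is no support for a difference. The lower call was lost without CB_10F (adjusted p = 0.0705), and with 1 difference per pool both were (0.198 and 0.0637).

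The ATP9B circRNA with the primers shown, at chr18:72503628-72524151, made up a different share of its host gene in the 2 tissues. It had 580.3, 429.8, 463.8 and 426.5 TPM in CB_10F, CB_10M, CB_20F and CB_20M, against 9.42 to 122 TPM in neocortex with a median of 54.3. No values overlapped (log2 difference 3.20, SE 0.51, adjusted p = 0.000117). It was 10.7%, 10.4%, 16.1% and 10.9% of all ATP9B circRNA in the CB libraries and 0.408% to 3.87% in the neocortical ones. The log2 ratio of this circRNA to the other circRNAs of the gene differed by 2.79 (adjusted p = 0.0174, 0.0484 without CB_10F), and the call was lost with 1 difference per pool (adjusted p = 0.132) and among circRNAs above 0 in at least 12 libraries (0.0737).

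Across 7159 circRNAs with such a ratio, 137 were higher (1.91%) and 27 lower (0.377%) relative to their host in CB. These counts rested largely on hosts with few reads, since 92 of the 137 were circRNAs listed at 0 in every CB library and 125 had hosts under 20 reads in at least 2 CB libraries. With only values where the host had at least 20 reads, 3043 could be tested, and 3 were higher and 2 lower. The 3 were the ATP9B circRNA, 1 of DNMT3A, a DNA methyltransferase, at chr13:25206443-25207160 with 0 to 57.6% of the host in CB and a neocortical median of 0 and highest share of 53.1%, and the CDC42BPA circRNA at chr1:143352881-143353813. Those of DNMT3A and CDC42BPA were above 0 in 1 neocortical library each and passed the filter only through CB, so their calls are no support. For both, the 20-read minimum also left out CB_10F, where they were listed at 0. Without the minimum, the CDC42BPA ratio had a limma adjusted p of 0.0713. The 2 lower were minor circRNAs of CADPS2 and RIMS1, whose own levels were not called. The relative shares of GRM5 and CACNA1C circRNAs, both called as lower, had no host reads in CB behind them. The naming rule also gave TIMMDC1, WWOX, LHPP, ENSMMUG00000012056 and DDX52 as higher and ROBO2, FCHSD2, RASAL2 and the lower CDC42BPA circRNA as lower, and with the 20-read minimum only those of TIMMDC1, WWOX, FCHSD2 and CDC42BPA could be tested and none of these was called (adjusted p = 0.173 to 0.261).

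Among genes lower in CB, C6ORF142 (ENSMMUG00000012781, MLIP in the supplied gene names) had the largest difference. The circRNA at chr4:53822249-53875750 was listed at 0 in all 4 CB libraries and had a median of 2131 and a highest value of 4904 TPM in neocortex, where it ranked 2 by mean level. It was above 0 in 19 of 20 neocortical libraries. Against a floor of 3 reads per CB library, a mean of 17.6 TPM, it was at least 119-fold lower in CB (log2 difference -9.05, SE 1.07, adjusted p = 6.51e-07). Of 10 circRNAs of the gene tested, 5 were lower, 4 of these started at position 53822249, and all 10 had a log2 difference below 0. The gene's sum was 9.78 TPM in CB_20F and 0 in the other CB libraries, against 386.1 to 5907 TPM (log2 difference -9.32, SE 0.62, adjusted p = 1.02e-12). By voom the sum had an adjusted p of 0.402, while the abundant circRNA had 3.43e-09.

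RAPGEF5 (ENSMMUG00000002987), an exchange factor for the GTPase RAP1, followed the same pattern. Its 30 circRNAs summed to 15.4 TPM in CB_20M and to 0 in the other CB libraries, and in neocortex the sum ran from 91.1 to 1132 TPM with a median of 546.4. CB and neocortex did not overlap, and the log2 difference was -6.95 (SE 0.56, adjusted p = 1.03e-10). Of its 11 circRNAs tested, 4 were lower, of which 3 started at position 103874709 of chromosome 3. ARHGAP10, a GTPase-activating protein, had 4 of 18 circRNAs lower and a sum of 4.40 to 225 TPM in CB against 295.2 to 1395 in neocortex (log2 difference -4.16, adjusted p = 4.92e-06).

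Several of the host genes named as lower were listed at 0 in every CB library, where each circRNA of the sum can hide 1 read. GRM5, the postsynaptic glutamate receptor mGlu5, was at 0 in all 4 CB libraries and at 41.8 to 342 TPM in neocortex with a median of 117 (log2 difference -5.56, SE 0.49, adjusted p = 7.80e-10). CACNA1C, the pore of an L-type calcium channel, was at 0 in CB and at 30.02 to 151 TPM in neocortex (log2 difference -4.99, adjusted p = 3.23e-09). LRRC7, a scaffold protein of the postsynaptic density, was at 0 in CB and at 16.9 to 242 TPM in neocortex (log2 difference -5.20, adjusted p = 2.81e-08). No circRNA of these 3 genes was called in any CB library, and at least 1 was in each of the 20 neocortical libraries.

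ERC2, an active zone protein, had 5.43 TPM in CB_20F and 0 in the other CB libraries, against 45.5 to 533.8 TPM. PTPRT, a receptor tyrosine phosphatase, had 4.51 TPM in CB_10M and 0 in the others, against 27.7 to 221 TPM. CUX2, a transcription factor of upper layer pyramidal cells, had 0, 21.0, 9.78 and 17.6 TPM in CB_10F, CB_10M, CB_20F and CB_20M, against 106 to 488.9 TPM with a median of 239. The groups did not overlap in any of the 3, and CUX2 differed by -4.45 on the log2 scale (SE 0.51, adjusted p = 1.85e-07).

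PRSS12, a synaptic serine protease also called neurotrypsin, was at 0 in CB and at 18.4 to 247 TPM in neocortex, with its lowest regional mean in OC. LRRFIP1 and FMN1, a formin that nucleates actin filaments, had at most 3.01 and 6.6 TPM in CB against neocortical medians of 119 and 103. ENSMMUG00000000884, described in the table as the kinase MAST4, had at most 19.8 TPM in CB against 94.2 to 961.4 in neocortex. ENSMMUG00000021153 (SGK3 in the supplied gene names), also a kinase, had at most 11.95 TPM against 26.6 to 232. All 12 host genes named as lower were called also without CB_10F.

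**Figure D4:**
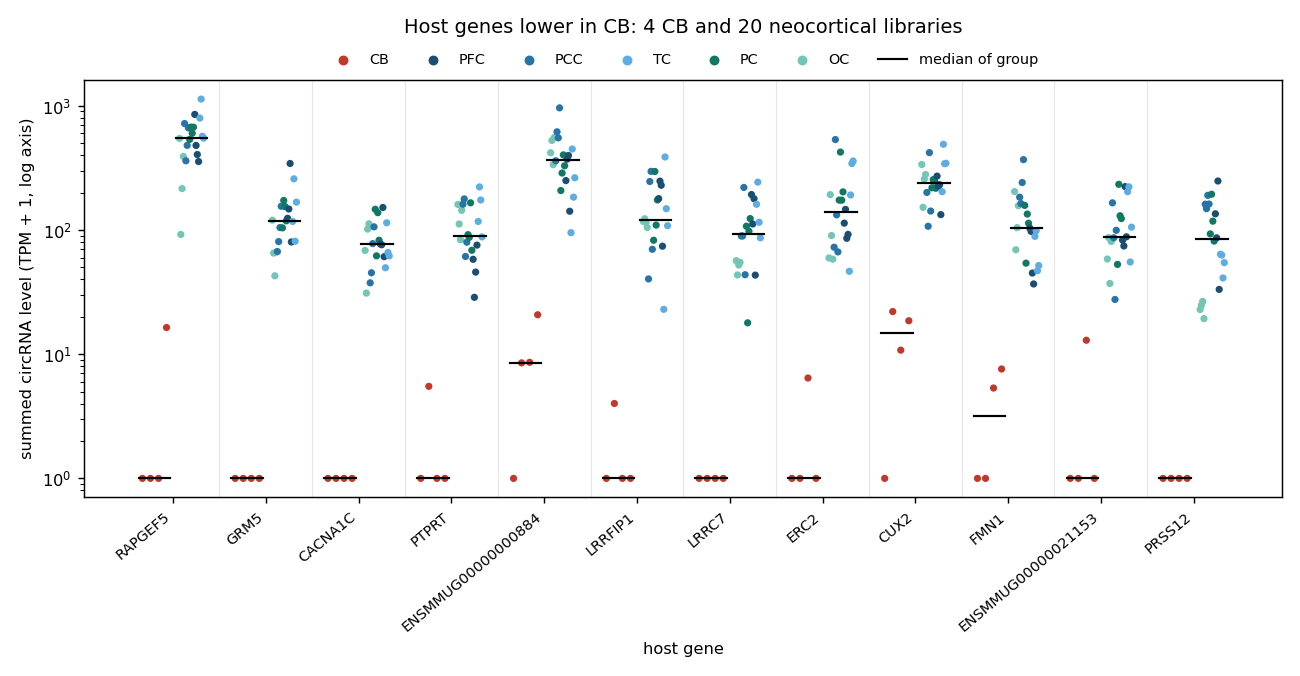
Summed circRNA level (TPM + 1, log axis) of the 12 host genes named as lower in CB, with 4 CB libraries (red) and 20 neocortical libraries (blue and green by region) as points and the median of each group as a bar. Every CB point lies below every neocortical point of the same gene, and GRM5, CACNA1C, LRRC7 and PRSS12 are at 0 TPM in every CB library.

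Single circRNAs lower in CB included intergenic ones at high neocortical levels. The circRNA with the smallest p of all, at chr6:17638855-17643405, was listed at 0 in every CB library and at 95.2 to 634 TPM in neocortex with a median of 234, at least 14.8-fold lower (log2 difference -6.59, SE 0.45, adjusted p = 1.96e-11). A second one at chr6:146707952-146711102 had 0, 12.02, 10.9 and 4.40 TPM in CB against 253.6 to 1667 TPM (log2 difference -6.49, adjusted p = 8.75e-10). The circRNA at chr5:140041447-140041677 had 13.0 TPM in CB_20F and 0 in the other CB libraries, against 38.5 to 705 TPM. A circRNA of DPP10, an accessory subunit of A-type potassium channels, at chr13:121446311-121477141 had 0 to 12.02 TPM in CB against 57.4 to 466.2 TPM. None of these 4 overlapped between the groups.

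Gene families of the synapse and of other roles are given by their counts, to be read against the 2.81% of all host genes called as higher, the 3.05% called as lower and the 51.9% with a log2 difference below 0. Of 13 metabotropic glutamate and GABA receptor genes tested, GRM4 was higher, GRM5 and GRM8 were lower, and the median log2 difference was -0.82 against -0.05 over all host genes tested. GRM8, a presynaptic receptor of the same group as GRM4, had 0, 0, 41.3 and 117 TPM in CB_10F, CB_10M, CB_20F and CB_20M, against a neocortical median of 285.3 (log2 difference -3.98, SE 0.79, adjusted p = 0.000960). Its neocortical values began at 9.07 TPM, so the groups overlapped, and by voom its adjusted p was 0.132. Of 11 ionotropic glutamate receptor genes, 2 were higher, among them the kainate receptor gene GRIK2, the NMDA receptor gene GRIN2B was lower, and the median was -0.69. GRIK2 and GRIN2B lost their call without CB_10F (adjusted p = 0.240 and 0.0899) and by voom (0.0892 and 0.371).

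Of 20 presynaptic active zone genes, RIMS1, CADPS2 and ERC1 were higher and ERC2 and RIMBP2 lower, with a median log2 difference of 0.19. ERC1 and ERC2 are related scaffold proteins. ERC1 had 655, 409, 173 and 578 TPM in CB_10F, CB_10M, CB_20F and CB_20M, against 58.9 to 255 TPM in neocortex (log2 difference 1.54, SE 0.48, adjusted p = 0.0486), a call that was lost without CB_10F (adjusted p = 0.2003). RIMBP2, which links RIM proteins to calcium channels, was at 0 in every CB library against a neocortical median of 38.5 (log2 difference -3.73, adjusted p = 0.00210, and 0.0579 by voom).

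Of 8 voltage-gated calcium channel genes, CACNA1A was higher and CACNA1C lower. CACNA1A, the pore of the P/Q-type channel of presynaptic terminals and Purkinje cells, had 4905, 2985, 2553 and 2935 TPM in CB against 182.6 to 1858 TPM. These ranges did not overlap, and the log2 difference of 1.86 (SE 0.55) had an adjusted p of 0.0344, and of 0.1499 without CB_10F. Of 16 potassium channel genes, KCND2 was higher and KCNQ5 and KCNMA1 lower, with a median of -0.80. KCNQ5, an M-current channel, was at 0 in every CB library against a neocortical median of 39.2 (adjusted p = 4.86e-05). KCNMA1, the BK channel, had 0 to 10.99 TPM in CB against 26.7 to 185 TPM (adjusted p = 5.01e-05).

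Axon guidance and adhesion genes were mostly uncalled. Of 22 guidance genes, ROBO2, DCC and EPHA5 were lower and none was higher, with 17 of 22 log2 differences below 0 and a median of -0.76. ROBO2, a receptor for SLIT proteins, had 37.4, 4.51, 68.4 and 33.0 TPM in CB against 89.0 to 870.4 TPM with a median of 442.2 (log2 difference -3.70, SE 0.58, adjusted p = 3.53e-05), and it alone of the 3 was called without CB_10F. By voom none of the 3 was called (adjusted p = 0.138, 0.0667 and 0.408). Of 25 synaptic adhesion genes, MDGA1 and ODZ1 (TENM1 in the supplied gene names) were higher and MDGA2 and CNTN5 lower, with a median of -0.54. MDGA1 passed the filter only through CB, so its call is no support for a difference. CNTN5, a contactin, was at 0 in every CB library and at 5.43 to 79.7 TPM in neocortex (adjusted p = 5.15e-05).

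Of 8 growth factor receptor genes, FGFR1 was higher and NTRK2, the receptor of BDNF, lower. NTRK2 had 0, 105, 65.2 and 81.4 TPM in CB_10F, CB_10M, CB_20F and CB_20M against a neocortical median of 391.9, and its call was lost without CB_10F (adjusted p = 0.00640 with it and 0.1499 without) and by voom (0.585). Of 15 transcription factor genes of the hindbrain and forebrain, CUX2 and TLE1 were lower and none was higher (median -0.996), and TLE1, a corepressor, lost its call without CB_10F (adjusted p = 0.138) and by voom (0.524). Of 13 genes of regulators of circularization, ADARB2 alone was called, as lower, and its call was lost without CB_10F (adjusted p = 0.128) and by voom (0.277). Of 22 host genes of circRNAs known from brains of other mammals, RIMS1 and ERC1 were higher and none was lower, although 1 was lower without CB_10F and 2 with size factors, and the median was -0.05. None of 8 genes of intracellular calcium release was called. In lists of this size, a single call is too few to be compared with the shares called over all host genes. With 1 difference per pool, the calls of GRIK2, GRIN2B, GRM8, ERC1, CACNA1A, EPHA5, ODZ1, NTRK2, TLE1, ADARB2 and KCND2 were lost (adjusted p = 0.0543 to 0.214).

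Cell type markers were checked by their circRNAs, which stand for few of the markers. Of 20 granule cell markers, 5 had circRNAs that could be tested. CHN2, TIAM1, CADPS2 and KCND2 were higher in CB, UNC13C was not called (adjusted p = 0.119), and the median log2 difference was 3.55. Their sum ran from 958 to 2733 TPM in CB and from 36.3 to 189.9 TPM in neocortex. In CB it was mostly TIAM1 (621 to 1741 TPM) and CADPS2 (242 to 674 TPM). The list was chosen with earlier results of these data known, so its count and median are no independent support. CHN2, a RAC1 inhibitor, had 112, 46.6, 51.1 and 59.4 TPM in CB against at most 18.1 in neocortex (adjusted p = 6.83e-06). KCND2 rested on few reads, with 0 to 50.6 TPM in CB and at most 16.6 in neocortex (adjusted p = 0.0424).

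Of 20 Purkinje cell markers, 11 could be tested and 1 was called, as higher, 6 had a log2 difference above 0 and 5 below, and the median was 1.22. Their sum of 477.1 to 1067 TPM in CB, against 101.9 to 443.2 in neocortex, was mostly INPP5A. INPP5A, a phosphatase of inositol phosphates, had 343 to 786 TPM in CB, above all neocortical values (at most 312), but with a log2 difference of 1.98 its adjusted p was 0.140. RORA and FOXP2, which also mark Purkinje cells, were at 0 in every CB library, and in neocortex their medians were also 0. ITPR1, a defining calcium release channel of these cells, had 7.51 TPM in CB_10M and 0 in the others.

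Of 10 neocortical pyramidal cell markers tested, CUX2 and CAMK2A were lower, 9 had a log2 difference below 0, and the median was -1.04. CAMK2A, a calcium-dependent kinase of excitatory synapses, was at 0 in every CB library and at 6.22 to 184 TPM in neocortex (adjusted p = 1.28e-05). RORB, BCL11B, SLC17A7, TSHZ2, CPNE4 and PDZRN4 were among those also at 0 in every CB library, with neocortical medians of at most 2.75 TPM. The summed pyramidal cell markers ran from 9.78 to 93.6 TPM in CB and from 150.4 to 705.0 TPM in neocortex. Of 4 neocortical interneuron markers tested, ADARB2 was lower.

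No glial or vascular marker was called, with 6 astrocyte and Bergmann glia, 5 oligodendrocyte and 3 microglia and vascular markers tested. Their median log2 differences were -0.70, -0.62 and -0.51. The astrocyte markers summed to 0 to 25.0 TPM in CB and 0 to 130 TPM in neocortex, and the oligodendrocyte markers to at most 9.02 TPM in CB and 94.4 in neocortex. A single cerebellar interneuron and Golgi cell marker was tested and not called. The part of cell composition in the differences between CB and neocortex was not tested.

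The 6 circRNAs that the study listed as CB enriched were chosen on these samples, so their direction is no independent evidence. All 6 were higher by limma. Beside those of RIMS1, ANK1, TRIM72 and ATP9B, the exonic circRNA of MCTP1 at chr6:91133100-91155536 had 112, 19.5, 6.52 and 24.2 TPM in CB_10F, CB_10M, CB_20F and CB_20M and was above 0 in 1 of 20 neocortical libraries, at 3.24 TPM. It too passed the filter only through CB, and with 1 difference per pool its adjusted p was 0.0645. The circRNA of TNRC6A, a component of miRNA silencing complexes, at chr20:23227042-23246911 had 74.9, 25.6, 34.8 and 33.0 TPM in CB against 0 to 43.2 TPM in neocortex. Its groups overlapped, and its adjusted p of 0.0488 became 0.167 without CB_10F and 0.0804 by voom. The paper also reports RT-qPCR in which CB specific circRNAs, those of TRIM72, ATP9B and TNRC6A among them, were higher in CB. Those RT-qPCR values were not used here.

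The most abundant circRNAs of CB were partly those of neocortex, with 4 in common among the 10 highest means of each. Of the 10 highest in CB, 4 were called as higher, from RIMS1 (2 circRNAs), ANK1 and SMARCA5. The circRNA of SMARCA5, a chromatin remodelling ATPase, at chr5:135960595-135961059 had 2768 to 6485 TPM in CB against 139.5 to 3238 TPM (log2 difference 2.12, SE 0.58, adjusted p = 0.0313, 0.0702 without CB_10F and 0.116 by voom). Of the 10 highest in neocortex, 3 were called as lower in CB. The circRNA of GDAP1L1 at chr10:20186521-20187867, the highest in neocortex, had 2003, 1190, 439 and 1007 TPM in CB against 1264 to 5979 TPM with a median of 3734 (log2 difference -1.71, SE 0.47, adjusted p = 0.0311, and 0.175 by voom). The third in neocortex, an intergenic one at chr14:127298190-127302852, had 0 to 430.6 TPM in CB against 674 to 3406 TPM (log2 difference -4.16, adjusted p = 0.000635). With 1 difference per pool the calls of SMARCA5, GDAP1L1 and this circRNA were lost (adjusted p = 0.0797, 0.143 and 0.196).

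The circRNAs called differed in their makeup. The back-splice ends of those higher in CB lay a median of 3779 bases apart and of those lower 12308, while over all tested the median was 5389. Intergenic circRNAs were 17.5% of those higher, 29.6% of those lower and 16.5% of those tested, and intronic ones 9.59%, 4.94% and 7.67%. Those lower were found in a median of 19 of the 24 libraries and those higher in 8, as were all tested, so the sets differ in how often they were found as well. Of the 162 lower, 69 were listed at 0 in every CB library.

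By class, intergenic circRNAs took a smaller share of back-splice reads in CB. The share was 11.9%, 11.3%, 11.4% and 11.8% in CB_10F, CB_10M, CB_20F and CB_20M, against 15.0% to 18.3% in neocortex with a median of 16.6%. Again no values overlapped, and the means differed by -4.95 percentage points (11.6% ± 0.296 against 16.6% ± 0.843, two-sided exact permutation p = 9.4e-05, the smallest that 10626 choices allow). Intronic circRNAs took 8.62% to 9.01% in CB against 5.88% to 8.37% in neocortex, 1.74 percentage points more, with the same exact permutation p. Of this difference 0.926 points came from the intronic circRNA of ANK1, which held 0.731% to 1.45% of the reads in CB and at most 0.256% in neocortex. Without it the intronic share differed by 0.811 points (exact permutation p = 0.0419), and without it and the intronic RIMS1 circRNA at chr4:68561925-68607531 by 0.195 points (exact permutation p = 0.613). Both were picked as the intronic circRNAs whose mean TPM was most raised in these CB libraries. A smaller difference and a larger p without them follow from that choice, so the p values are a description. As a share of the circRNAs found, intronic ones differed by only 0.116 percentage points (exact permutation p = 0.658).

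Reads were also more concentrated in CB. At an equal depth of 18813 reads the 100 most abundant circRNAs of a library held 37.0% to 38.8% of the reads in CB and 28.2% to 35.6% in neocortex, a difference of 6.04 percentage points (exact permutation p = 9.4e-05). RIMS1 alone accounts for up to 5.23% of the reads in CB. For these 3 shares the 4 tests of whole libraries give an adjusted p of 0.000125. With 1 difference per pool all 4 pools went the same way, and the exact sign-flip p of 0.125 is the smallest that 4 pools allow. The number of circRNAs found at this depth was 2284, 4880, 4560 and 4520 in CB_10F, CB_10M, CB_20F and CB_20M against 3076 to 5454 in neocortex (exact permutation p = 0.509). CB_10F was not thinned and each of its calls already needed 2 reads, while thinned libraries also count circRNAs left with 1 read. Its 2284 is therefore not comparable. With at least 3 reads, 1767, 1349.5, 1334 and 1395 were found in CB_10F, CB_10M, CB_20F and CB_20M, against 1441 to 1805 in neocortex (exact permutation p = 0.0173).

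**Figure D5:**
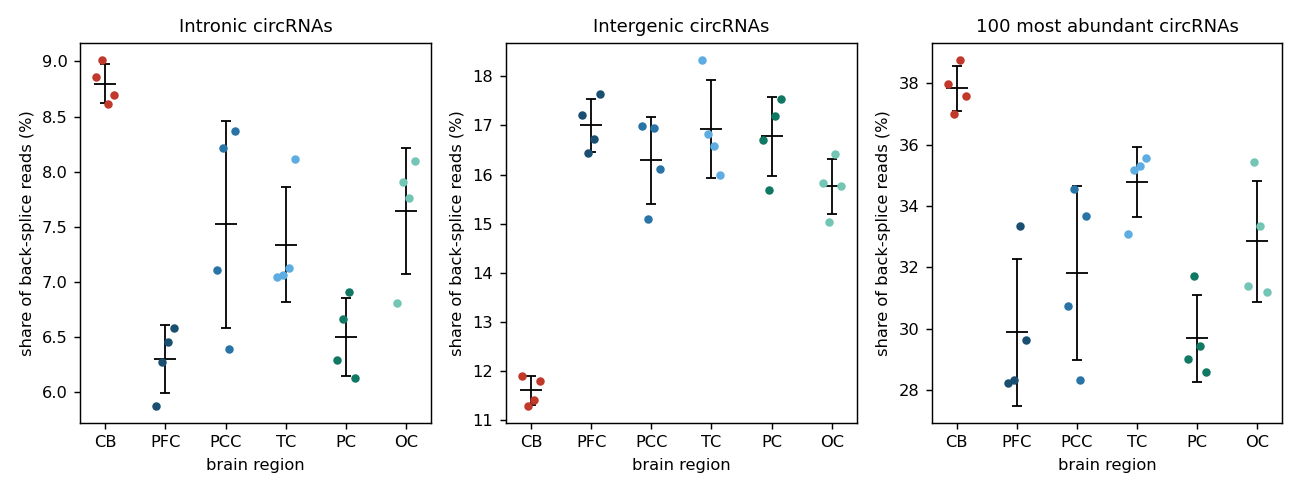
Share of back-splice reads (%) from intronic circRNAs, intergenic circRNAs and the 100 most abundant circRNAs (at 18813 reads) in each of the 4 libraries of CB and of 5 neocortical regions, with mean and SD; the axes do not start at 0. The CB libraries lie above every neocortical library for intronic circRNAs and the 100 most abundant, and at 11.3% to 11.9% below every one for intergenic circRNAs.

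The CB difference was set against age and sex in the same libraries, with 2 CB libraries at each age and of each sex. For 2 of 10916 circRNAs (0.0183%) it differed between 10 and 20 years by limma. The circRNA of SETDB1, a histone methyltransferase, at chr1:129368881-129370474 had 225 and 117 TPM in CB at 10 years and 0 in both CB libraries at 20 years, while the neocortical mean was 22.7 TPM at 10 and 39.5 at 20 years (interaction -6.94 on the log2 scale, SE 1.16, adjusted p = 0.0139). That of MAP4K3, a kinase, at chr13:39334543-39340482 had 56.2 and 113 TPM in CB at 10 years and 0 in both at 20 years, with neocortical means of 108 and 109 TPM (interaction -5.22, SE 0.89, adjusted p = 0.0139). No circRNA was called without CB_10F, without CB_20M or by voom (416, 409 and 207 had an unadjusted p under 0.05), and 32 were called without CB_10M. For sex, limma called 0 circRNAs and voom also 0, while 635 had an unadjusted p under 0.05 by limma and 391 by voom. Without CB_20F, 10 were called for sex.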

How the data were processed

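Back-splice reads of circRNA-seq libraries (poly(A) and ribosomal RNA depleted, RNase R digested) were analysed. The authors trimmed reads with Cutadapt, aligned them with BWA, called circRNAs with CIRI2 at 2 or more junction reads, and deposited the values in TPM, whose denominator and genome build are not given in the sources used here. Values were read as whole reads times 1 constant per library (largest deviation 0.0164 of a read). From these values, the study's expression filter (3 or more reads in 2 libraries of at least 2 regions, or of 1 region and in 6 libraries in all, or 30 reads in total) kept 17050 of 52828 circRNAs, and those above 0 in at least 4 of the 24 libraries were tested with limma 3.58.1 (R 4.3.3) on log2(TPM + 2.455), with Benjamini-Hochberg adjustment. Host sums used circRNAs with a single gene ID. Differences are on this log2 scale, which understates changes of low values. Library measures were tested by exact permutation. PCR copies cannot be told from molecules, so depths bound counting error only. Libraries of a pool come from the same animals and pair across regions (correlation of same-pool deviations -0.01 to 0.07, median 0.03, against -0.01 for other pools), and the pool was a block in an alternative. Tests were tried on simulated data, where more calls were false than the threshold states, for circRNAs and for host genes, and circRNAs made lower were recovered less often than those made higher by the same fold.

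Named circRNAs (up to 10 per direction) and host genes (up to 12) had the smallest limma p among those called, also called by voom on recovered reads, and with the same sign in 4 pools (shares of the host: up to 6, without voom). The study's CB candidates, called list members, defining cell type markers, genes with calls in both directions and genes with 4 or more called circRNAs, with the 10 most abundant, were added, the last 2 after values were seen. Members and lists were chosen with earlier results of these data known. Unnamed genes use supplied gene names. Alternatives were other scalings, pseudocounts, filters, voom, blocks and left-out libraries. Some genes of these lists are counted but not reported by name here.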

Additional observations from a re-analysis of the deposited data

Results flagged for a closer look

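Of 53 sets of 4 CB values checked for a value far from the other 3, 13 were set apart. Chance does so in about 1 in 20 sets of continuous values, but a single value above 3 zeros always is. In CB_10F the values set apart were ENSMMUG00000031292 (168 TPM), the host sum of FGFR1 (225 TPM), the FGFR1 circRNA at chr8:38917171-38917349 (187 TPM), the intergenic circRNA at chr3:943243-945636 (56.2 TPM) and the exonic MCTP1 circRNA at chr6:91133100-91155536 (112 TPM), all high, and the number of circRNAs found at equal depth (2284), which was low. In this library 1 read is worth 18.7 TPM. It was not thinned, so its 2284 is not comparable with the thinned libraries, and with at least 3 reads its 1767 was the highest of CB.

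The other 7 were a single low value above 3 zeros among genes lower in CB, and the count of such sets is fixed by the zeros. These were RAPGEF5 in CB_20M (15.4 TPM), PTPRT (4.51 TPM), LRRFIP1 (3.01 TPM) and the circRNA of ENSMMUG00000000884 at chr6:64664693-64692974 (7.51 TPM) in CB_10M, and ERC2 (5.43 TPM), ENSMMUG00000021153 (11.95 TPM) and the intergenic circRNA at chr5:140041447-140041677 (13.0 TPM) in CB_20F. All 7 lay below every neocortical value of the same feature.

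The CB difference of circRNAs of SETDB1 (-6.94 on the log2 scale, 20 minus 10 years) and MAP4K3 (-5.22) differed between ages by the interaction test. Each rests on 2 CB libraries per age.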

How the results depend on the processing

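Of 72 results named for a gene or circRNA, 61 stayed past the threshold without CB_10F and 60 with 1 difference per pool. Most were named because voom and the sign in all 4 pools also gave the call, so a call kept by voom or a sign kept in every pool shows no stability. CircRNAs higher and lower in CB numbered 161 and 142 with a 10-fold lower pseudocount, 102 and 168 when above 0 in at least 12 libraries, 181 and 68 by voom, 99 and 101 with 1 difference per pool, 78 and 96 by voom without CB_10F and 331 and 102 with size factors without CB_10F. Host genes numbered 67 and 122, 81 and 146, 132 and 44, 82 and 83, 140 and 46, and 115 and 103 in the same settings. Voom moved the median log2 difference of all circRNAs from -0.12 to 0.89 and that of host genes from -0.05 to 0.76, and rescaling to the same total moved the share of host genes higher among calls from 48.0% to 35.7%. Shares of the host numbered 36 higher and 1 lower with a 10-fold lower pseudocount, 75 and 8 with 1 TPM, 327 and 71 with no library filter, 10 and 5 above 0 in 12 libraries, 53 and 5 with 1 difference per pool, 42 lower without TC, and 3 and 2 with at least 20 host reads.

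Leaving out each CB library or pool gave 148 to 283 circRNAs higher and 82 to 124 lower, 68 to 98 host genes higher and 77 to 139 lower, 62 to 90 shares higher and 8 to 24 lower, 0 to 32 calls for age and 0 to 10 for sex, and differences of -568 to 298 circRNAs found. The intergenic share then differed by -5.05 to -4.85, the intronic by 1.66 to 1.80 and that of the 100 most abundant by 5.73 to 6.31 percentage points. For age, 0 were called with a 10-fold lower pseudocount, above 0 in 12 libraries or by voom, where 470, 148 and 207 had an unadjusted p under 0.05 by limma or voom. CircRNAs found differed by -295 in the mean and by 298 without CB_10F, which reverses it, and with at least 3 reads by -179 (exact permutation p = 0.0173). Without CB_10F, the difference with at least 3 reads was -280 (exact permutation p = 0.000565). Without CB_10M, CB_20F or CB_20M it was -141, -136 and -156 (exact permutation p = 0.0593 to 0.101). With the pool as a block, circRNA calls numbered 296 and 170, host gene calls 135 and 146, and the shares of 1.74, -4.95 and 6.04 percentage points had an exact p of 0.125, so that with 4 pools no call was possible. The intronic share of circRNAs found differed by 0.116, and that of reads by 0.195 without the ANK1 and RIMS1 intronic circRNAs with the largest differences. The settings that combine size factors or voom with other choices, the 20-read host minimum and the intronic circRNAs left out were chosen after seeing the data. CB_10F limits the depth of every CB mean, and 0 in CB means only that fewer than 2 reads were listed. Of 55 circRNAs with a CB median of at least 500 TPM, 5 were also listed at 0 in a CB library, and the cause of such zeros was not tested.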
